A study of Mus musculus with 6 samples.

Results

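Transcripts of respiratory complex I were followed in LSK cells of mouse bone marrow, which carry Sca-1 and Kit but lack markers of mature lineages and in which haematopoietic stem cells are enriched. The members were all genes on the array whose symbol starts with Nduf and that had a probe set annotated to that symbol alone. These were 39 genes of 12393 with a single symbol, measured by 74 of 22626 probe sets. Each gene was represented by its probe set with the highest mean signal, and its other probe sets were then compared with it. The study compared 3 arrays of LSK cells labelled Gfi1 knockout with 3 arrays of LSK cells labelled Gfi1 wild type, with samples numbered 5, 7 and 8 in each group. Each array carried RNA of 1 sample of sorted cells. No source used here gives the Gfi1 allele, the strain, the age, the sex or how many mice make up a sample. The spread behind each p-value is therefore that of these samples and may be technical.

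Complex I is the NADH dehydrogenase of the inner mitochondrial membrane. It passes electrons from NADH through a flavin and a chain of iron-sulfur clusters to ubiquinone and pumps protons as it does so. Its L shape has a peripheral arm in the matrix, where the core subunits carry the redox centres, and a membrane arm, where subunits encoded by mitochondrial DNA pump protons. Accessory subunits surround this core, and assembly factors join the pieces without staying in the finished enzyme. Long-term haematopoietic stem cells are known to rely on glycolysis more than on respiration, and mitochondrial respiration rises as they differentiate.

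The targeted gene did not check the labels. Gfi1 had signals of 692, 1163 and 1737 on knockout-labelled arrays 5, 7 and 8, against 632, 608 and 723 on wild-type arrays 5, 7 and 8, and differed by 0.76 ± 0.28 (log2, SE; limma adjusted p = 0.148). It was therefore not lower where the label says knockout. No source states where the deletion lies, and a probe set outside the deletion checks nothing. The arrays are called knockout-labelled below, and every direction rests on the labels. Signals are the authors' MAS5 values in scanner units, already scaled on each array. Of the LSK markers, Kit had signals of 3512, 4669 and 4496 on the knockout-labelled arrays and 5871, 7052 and 7774 on the wild-type arrays, and it fell by 0.71 ± 0.17 (SE; limma adjusted p = 0.0381, up to 0.132 with 1 array left out). Sca-1 is encoded by Ly6a, which was not analysed here.

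Complex I transcripts lay slightly higher on the knockout-labelled arrays, almost without exception, but no single gene passed in the main limma fit. That fit left out the sample number, and with the number as a block 1 gene, Ndufa8, passed. Of the 39 genes, 38 had a difference above 0 and 1, Ndufaf3, lay below. The median difference was 0.32 on the log2(signal + 16) scale, or 1.25-fold, with a range of -0.33 to 0.60. Over all 8239 tested genes the median was -0.0069 and 49.2% lay above 0, against 97.4% of the Nduf genes. The added 16 makes differences of dim probe sets look smaller than they are. In RNA of a sorted fraction, fewer cells of a type and less RNA per cell cannot be told apart, nor can more cells and more RNA.

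All 39 genes passed the filter on dim probe sets, and 0 were called higher and 0 lower at an adjusted p under 0.05 in limma. Among all tested genes 1.42% were called higher and 2.48% lower. The smallest adjusted p among the members was 0.0775, for Ndufa8. In a fit that also held the sample number as a block, called blocked below, 1 member was called higher, Ndufa8 (adjusted p = 0.0438), and 0 lower, where 2.34% of all tested genes were called higher and 4.02% lower. Before adjustment, 14 members (35.9%) had a limma p under 0.05 and were higher, and none was lower, against 9.41% and 11.2% of all tested genes. For 15 members (38.5%) every knockout-labelled array lay above every wild-type array, and for 0 the reverse held. The same shares over all tested genes were 12.4% and 13.1%. Members share the same arrays and cells, so these counts are descriptions and not independent tests. Among others, Ndufs6, Ndufb4, Ndufa11, Ndufaf2, Ndufaf6 and Ndufaf8 had no probe set of their own under this rule and were not analysed here, nor were the subunits encoded by mitochondrial DNA.

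**Figure D1:**
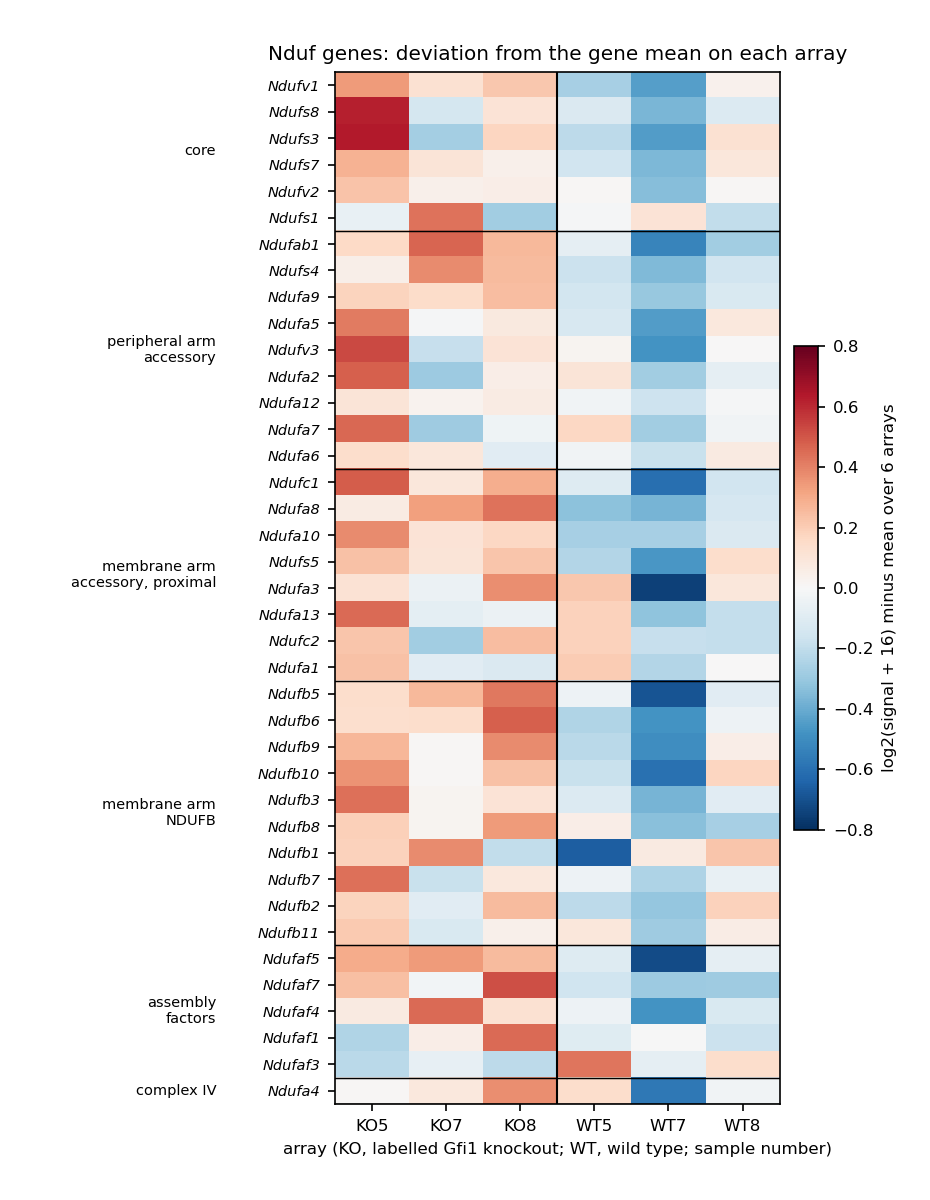
Each row is 1 Nduf gene and each column 1 array, with knockout-labelled arrays (KO) left of wild-type arrays (WT). Colour gives log2(signal + 16) minus that gene's mean over the 6 arrays. Red prevails in the knockout-labelled columns, and the darkest blue column is wild-type array 7, the lowest array for 32 of 39 genes.

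The shift was not even across arrays. The median over the members of the deviation from each gene's mean was 0.23, 0.031 and 0.17 on knockout-labelled arrays 5, 7 and 8, against -0.097, -0.36 and -0.038 on wild-type arrays 5, 7 and 8. The groups did not overlap in this median, and wild-type array 7 stood lowest. That array held the lowest value of 82.1% of the members, against 19.3% of all tested genes. Over all tested genes the same medians ran only from -0.049 to 0.033. Without wild-type array 7 the members' median difference was 0.22, and 34 of 39 genes lay above 0. Leaving out any other single array gave medians from 0.25 (without knockout-labelled array 5) to 0.42 (without wild-type array 8).

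Differences within a sample number pointed the same way in most members. For number 5 the knockout-labelled minus wild-type difference had a median of 0.37 and was above 0 in 34 genes. For number 7 these were 0.38 and 36 genes. Number 8 gave 0.18 and 30 genes. In 25 members (64.1%) all 3 within-number differences were above 0, which held for 22.4% of all tested genes.

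Promoters of 4 members are shown. Ndufa8, Ndufb6 and Ndufc1 were picked, after their windows had been searched, as 1 example each of a motif of a factor known to act on respiratory chain genes, and Ndufaf3 because it was the member below 0. Each window runs from 250 bases before to 50 bases after the RefSeq start (GRCm38.p6), read 5′ to 3′ on the gene's strand, here the minus strand for all 4. Capitals mark matches on either strand to GCGCNTGCG (NRF1), CCGGAAG (the ETS family, which includes GABP) or AAGATGGC (YY1). The windows lie at chr2:36049289-36049588, chr4:40279372-40279671, chr3:51408906-51409205 and chr9:108567387-108567686.
Ndufa8: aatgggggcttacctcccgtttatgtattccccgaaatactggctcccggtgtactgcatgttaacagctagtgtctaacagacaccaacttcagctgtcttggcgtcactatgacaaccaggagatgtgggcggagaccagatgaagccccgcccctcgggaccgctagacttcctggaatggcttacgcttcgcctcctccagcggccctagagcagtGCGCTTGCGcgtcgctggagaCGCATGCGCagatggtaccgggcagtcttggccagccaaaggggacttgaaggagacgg
Ndufb6: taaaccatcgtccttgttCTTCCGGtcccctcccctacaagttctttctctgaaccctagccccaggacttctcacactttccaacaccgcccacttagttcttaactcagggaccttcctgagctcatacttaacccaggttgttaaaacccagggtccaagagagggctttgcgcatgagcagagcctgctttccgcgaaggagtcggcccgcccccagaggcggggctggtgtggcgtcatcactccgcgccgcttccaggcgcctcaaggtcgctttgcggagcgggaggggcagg
Ndufc1: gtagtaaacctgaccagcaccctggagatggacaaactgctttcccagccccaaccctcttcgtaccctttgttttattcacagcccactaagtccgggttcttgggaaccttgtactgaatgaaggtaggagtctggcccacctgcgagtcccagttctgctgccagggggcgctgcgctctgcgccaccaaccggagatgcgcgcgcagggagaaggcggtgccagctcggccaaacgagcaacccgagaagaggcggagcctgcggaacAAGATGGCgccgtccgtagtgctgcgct
Ndufaf3: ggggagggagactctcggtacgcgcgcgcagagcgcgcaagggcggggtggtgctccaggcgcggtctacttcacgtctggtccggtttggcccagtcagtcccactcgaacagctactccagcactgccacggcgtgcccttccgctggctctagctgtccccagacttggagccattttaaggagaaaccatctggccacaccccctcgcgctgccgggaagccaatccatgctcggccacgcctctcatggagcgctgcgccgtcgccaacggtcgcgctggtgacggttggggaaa

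The window of Ndufa8 held 2 NRF1 matches, that of Ndufb6 1 ETS match and that of Ndufc1 1 YY1 match, and none of these letters was found in the window of Ndufaf3. The same holds for Ndufab1, Ndufb5, Ndufaf7 and Ndufv1, which had differences of 0.59, 0.55, 0.49 and 0.45, so a window without a match was not limited to a low difference. RefSeq windows were matched for 36 of the 39 genes, 38 windows in all. The NRF1 letters were found in 9 of them (23.7%), against 6.31% of all 32851 windows. These letters had been shortened by 1 base after a first search, so this share is not independent of that search. For the YY1 letters the shares were 15.8% of the members' windows and 2.75% of all windows, and for the ETS letters 13.2% and 8.86%. All 3 were more frequent among the members' windows, as a description with no test. At least 1 of the 3 was present in 20 members' windows (52.6%) and in 16% of all windows. The SP1 letters GGGCGG were in 50% and 35.7%, and CCAAT, bound by NF-Y, in 26.3% and 37.4%. A match to AATCACNGC, a form of the Gfi1 site, was in 0 members' windows and in 0.919% of all windows. Its letters too had been shortened by 1 base after a first search. The SP1, NF-Y and Gfi1 letters are not in capitals above, and no match overlapped another among the capitals.

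Of the core subunits, which hold the flavin and the iron-sulfur clusters, 6 were measured. All 6 lay above 0 and none passed in limma, with a median of 0.32. Ndufv1 carries the flavin that accepts electrons from NADH. Its signals were 8204, 7050.2 and 7505 on knockout-labelled arrays 5, 7 and 8, against 5368, 4758 and 6616 on wild-type arrays 5, 7 and 8. All 3 knockout-labelled arrays were above all 3 wild-type arrays, and the means were 7586 ± 581 and 5581 ± 947 (SD, n = 3 each). The difference was 0.45 ± 0.16 (SE; limma adjusted p = 0.138). Ndufv1 also had 2 dimmer probe sets, at 0.51 ± 0.16 and 0.56 ± 0.16 (limma adjusted p = 0.0929 and 0.0798). Both passed in the blocked fit (adjusted p = 0.0482 and 0.0399), and the second also without wild-type array 8 (limma adjusted p = 0.0445).

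Ndufv2, its partner with an iron-sulfur cluster, gave unequal answers from its probe sets. The brightest had signals of 16398, 14434 and 14545 on the knockout-labelled arrays, against 14144, 11074 and 14094 on the wild-type arrays. These groups did not overlap, though the nearest arrays were close, and the difference was 0.21 ± 0.14 (SE; limma adjusted p = 0.46). A dimmer probe set of Ndufv2 had signals of 8103, 6511 and 8567, against 4759, 4937 and 5396, and the knockout-labelled arrays were all well above the wild-type ones. It rose by 0.61 ± 0.16 (SE; limma adjusted p = 0.0493, blocked 0.0308), and the call was lost without any 1 of the 6 arrays (adjusted p 0.0577 to 0.209). The third, at 0.17 ± 0.15, was close to the brightest.

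Ndufs8 and Ndufs7, which carry the clusters nearest to the quinone site, and Ndufs3, a core subunit with no cluster, were highest on knockout-labelled array 5. Ndufs8 had 6874, 4052 and 4815 on the knockout-labelled arrays and 4110.4, 3459.7 and 4126 on the wild-type arrays. Knockout-labelled array 7 lay within the wild-type range, and the difference was 0.40 ± 0.20 (limma adjusted p = 0.287). Of its other 5 probe sets, 4 stood between 0.30 and 0.60 and the dimmest at -0.016. Ndufs3 had 2693, 1432 and 1948, against 1496, 1265 and 1888, with knockout-labelled array 7 below wild-type arrays 5 and 8 and a difference of 0.35 ± 0.24 (adjusted p = 0.451). Below, ± after a log2 difference is its SE and a bare number in parentheses its limma adjusted p. Ndufs7 had 2386, 2114 and 2023, against 1762, 1525 and 2089, with wild-type array 8 above knockout-labelled array 8 and a difference of 0.29 ± 0.18 (0.43). Ndufs1, the large subunit with several clusters, differed least among the core subunits. Its signals of 6008, 8473 and 5168 on the knockout-labelled arrays spanned the whole wild-type range of 6212, 6769 and 5453, and its difference of 0.066 ± 0.19 (limma adjusted p = 0.897) became -0.14 without knockout-labelled array 7 and -0.017 without wild-type array 8.

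**Figure D2:**
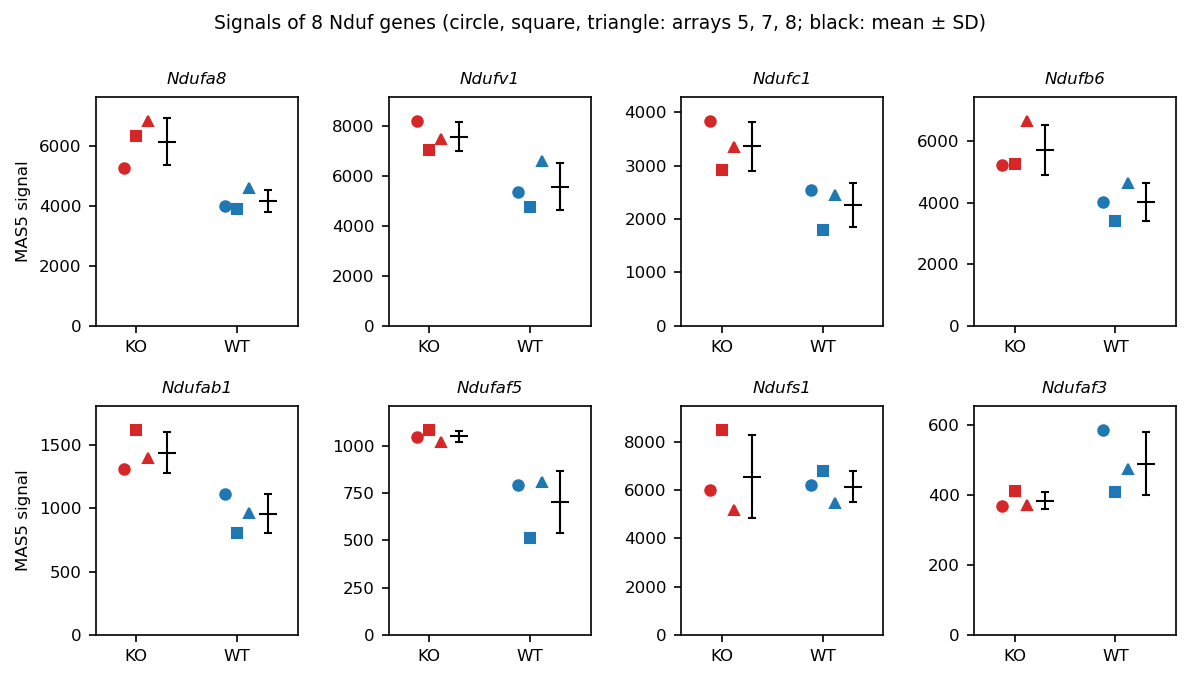
MAS5 signals (y axis, scanner units, from 0) of 8 members on the knockout-labelled (KO) and wild-type (WT) arrays, with the mean ± SD in black. Ndufa8, Ndufv1, Ndufc1, Ndufb6, Ndufab1 and Ndufaf5 show no overlap between the groups, Ndufs1 overlaps fully, and Ndufaf3 lies lower on the knockout-labelled arrays with overlap.

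The 9 accessory subunits of the peripheral arm all lay above 0, with a median of 0.30. Every knockout-labelled array was above every wild-type array for 38.5% of all members and 12.4% of all tested genes, against 4 (44.4%) of these 9. Ndufab1, the mitochondrial acyl carrier protein, which also sits in the membrane arm and acts in lipoic acid synthesis, had the highest difference of them. Its signals were 1307, 1615 and 1398 on knockout-labelled arrays 5, 7 and 8, against 1109, 804 and 961 on wild-type arrays 5, 7 and 8. The groups were apart, with means of 1440.0 ± 159 and 958 ± 152 (SD, n = 3 each) and a difference of 0.59 ± 0.20 (limma adjusted p = 0.12). A dimmer Ndufab1 probe set stood at 0.033 ± 0.22, so the difference of this gene rests on 1 probe set. Ndufs4, a subunit needed for a stable enzyme in mice, and Ndufa9, which lies at the junction of the arms, stood at 0.45 ± 0.19 and 0.38 ± 0.14 (0.203 and 0.137). Dimmer probe sets of Ndufs4 stood at 0.29 ± 0.23 and 0.065 ± 0.27, both with overlap (0.526 and 0.931).

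Ndufa5, a subunit of the quinone module, had signals of 3394, 2525 and 2675 on the knockout-labelled arrays, against 2321, 1858 and 2695 on the wild-type arrays. Wild-type array 8 lay above knockout-labelled arrays 7 and 8, and the difference was 0.32 ± 0.19 (limma adjusted p = 0.384). Its dimmer probe set stood at 0.75 ± 0.27 (limma adjusted p = 0.147, blocked 0.0438), with 744 on wild-type array 7 and 1667 to 2445 on the knockout-labelled arrays. Ndufa12, whose probe set is among the brightest of the family, had 24986, 23758 and 24306 on the knockout-labelled arrays and 22852, 20775 and 23116 on the wild-type arrays. These groups were apart by little, with a difference of 0.13 ± 0.12 (0.612). A dimmer probe set of Ndufa12 stood at 0.38 ± 0.14 without overlap (0.161), and another at 0.18 ± 0.14 with overlap (0.526). The remaining 4, Ndufv3, Ndufa2, Ndufa6 and Ndufa7, all overlapped and stood between 0.092 and 0.30.

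Accessory subunits of the membrane arm near the junction numbered 8, all above 0, with a median of 0.33. Ndufa8, a twin-CX9C protein of the intermembrane space, was the member with the smallest p. Its signals were 5273, 6322 and 6824 on knockout-labelled arrays 5, 7 and 8, against 4006, 3891 and 4594 on wild-type arrays 5, 7 and 8. No arrays overlapped, and wild-type array 7 was not far below the other wild-type arrays. Mean signals of 6139.8 ± 792 and 4164 ± 377 (SD, n = 3 each) gave 0.55 ± 0.16 (limma adjusted p = 0.0775, blocked 0.0438). With single arrays left out its difference ran from 0.47 to 0.66, and the adjusted p from 0.0693 to 0.275. Its promoter is the one above with the NRF1 matches.

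Ndufc1, a small membrane subunit, had 3831, 2909.6 and 3349 on the knockout-labelled arrays, against 2546, 1793 and 2456 on the wild-type arrays. The groups were apart, wild-type array 7 was the lowest, and the difference was 0.57 ± 0.19 (limma adjusted p = 0.114). Its dimmer probe set stood at 0.05 ± 0.23. Ndufs5, one of the 2 dimmest representatives, had 892, 813 and 883, against 641, 544 and 835, overlapping by 1 wild-type array, with a difference of 0.37 ± 0.21 (0.372). Ndufa1, an X-linked subunit needed for assembly of the membrane arm, had the brightest probe set and nearly equal groups. Its signals were 34319.8, 27420.0 and 26934, against 33549, 24854 and 29208, and its difference was 0.019 ± 0.15 (limma adjusted p = 0.965), or -0.093 without knockout-labelled array 5 and -0.092 without wild-type array 7. Ndufa10, a kinase-like subunit, stood at 0.43 ± 0.16 without overlap (0.147), and Ndufa3, Ndufa13 and Ndufc2 overlapped, between 0.13 and 0.29. How bright a probe set is depends on its probes, so levels of different genes cannot be ranked from these signals.

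The 10 NDUFB subunits, which line the membrane arm towards its far end, all lay above 0 with the highest median of the 4 groups of subunits, 0.37. At an unadjusted p under 0.05, 5 of them (50%) were higher, against 35.9% of all members and 9.41% of all tested genes. In 3 of the 10 (30%) every knockout-labelled array was above every wild-type array, against 38.5% and 12.4%. Ndufb6, needed for assembly of the membrane arm, had signals of 5225, 5257 and 6655 on knockout-labelled arrays 5, 7 and 8, against 4028, 3419 and 4638 on wild-type arrays 5, 7 and 8. Knockout-labelled array 8 was highest and the groups were apart, with a difference of 0.50 ± 0.17 (limma adjusted p = 0.125). Its second probe set stood at 0.61 ± 0.22 (limma adjusted p = 0.134, blocked 0.0482). Its promoter, above, holds the ETS match.

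Ndufb9, a LYR-motif subunit, had 3840.2, 3218 and 4157 on the knockout-labelled arrays, against 2744, 2259 and 3314 on the wild-type arrays. Wild-type array 8 lay above knockout-labelled array 7, and the difference was 0.44 ± 0.19 (limma adjusted p = 0.208). A dimmer Ndufb9 probe set had 5155, 2556 and 4127, against 2138, 1961 and 2061. All knockout-labelled arrays were above the narrow wild-type range, though they were far from each other. It rose by 0.88 ± 0.23 (SE; limma adjusted p = 0.0476, blocked 0.0273), and the call held only without knockout-labelled array 7 among fits with 1 array left out (adjusted p 0.0121, otherwise 0.0707 to 0.183). Ndufb11, the other X-linked member, stood at 0.087 ± 0.16 (0.829), and at -0.032 without wild-type array 7. Its signals were 8436, 6705 and 7485, against 7759.6, 5991 and 7598, and the groups overlapped. Of the other 7, Ndufb5 stood at 0.55 ± 0.19 and Ndufb3 at 0.38 ± 0.16, both without overlap, and the remaining 5 lay between 0.23 and 0.40.

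Assembly factors with an Nduf symbol numbered 5 and held both ends of the family. Ndufaf5, a methyltransferase-like hydroxylase that modifies Ndufs7, had the highest difference of all members. Its signals were 1047, 1081 and 1018 on knockout-labelled arrays 5, 7 and 8, against 789.9, 511 and 807 on wild-type arrays 5, 7 and 8. The knockout-labelled arrays were close to each other and above all wild-type arrays, of which array 7 was far the lowest. The difference was 0.60 ± 0.22 (limma adjusted p = 0.15), and 0.39 at its lowest with 1 array left out. Ndufaf7, an assembly factor with methyltransferase activity, had 3259, 2707 and 3939, against 2464, 2244 and 2256, again without overlap, and a difference of 0.49 ± 0.18 (0.148).

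Ndufaf3, an early assembly factor that binds Ndufaf4, was the member below 0. Its signals were 368, 412 and 370.0 on the knockout-labelled arrays, against 585, 408 and 475 on the wild-type arrays. Wild-type array 7 lay within the knockout-labelled range, and the difference was -0.33 ± 0.23 (limma adjusted p = 0.485). Leaving out single arrays kept it between -0.45 and -0.20. Its partner Ndufaf4 stood at 0.43 ± 0.20 without overlap (0.258), and Ndufaf1, a factor of the membrane arm intermediate, at 0.18 ± 0.19 (0.674). A dimmer probe set of Ndufaf4 stood at 0.11 ± 0.25 with overlap (0.856). Ndufa4 bears the family name, but its protein is now assigned to complex IV. It had 3433, 3613 and 4431, against 3759, 2288 and 3347, overlapping, with a difference of 0.31 ± 0.20 (0.434).

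**Figure D3:**
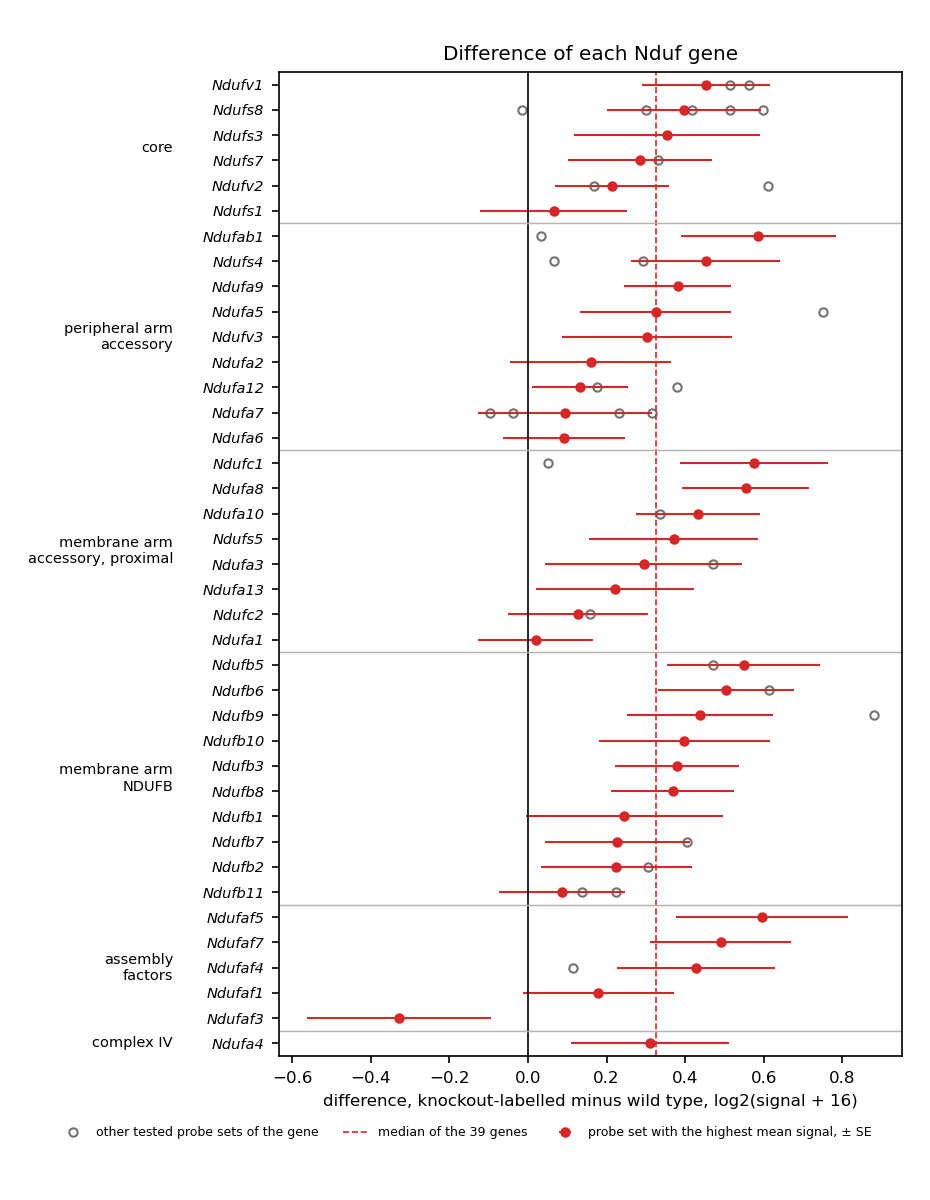
Difference between knockout-labelled and wild-type arrays for each member (x axis, log2(signal + 16) scale), in groups by role. Red points are the brightest probe set of each gene with its SE, open circles the gene's other tested probe sets, and the dashed line the median of 0.32. Ndufaf3 is the only red point left of 0.

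Probe sets other than the brightest were read as a check within each gene. Of 74 probe sets, 71 passed the filter, and 67 of these lay above 0. The 32 dimmer ones had a median of 0.31, 29 lay above 0, and 2 were called higher in limma, those of Ndufb9 and Ndufv2. In the blocked fit 6 were called, belonging to Ndufv1, Ndufv2, Ndufa5, Ndufb6 and Ndufb9. Among all tested genes, each by its brightest probe set, 1.42% were called higher in limma and 2.34% in the blocked fit. In 18 of the 20 genes with more than 1 tested probe set all lay above 0. The exceptions were Ndufs8 and Ndufa7, whose lowest probe sets stood at -0.016 ± 0.20 and -0.098 ± 0.25. These probe sets hybridised to the same RNA on the same arrays, so they repeat the measurement of a transcript and not the samples.

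Other parts of the mitochondrial machinery had medians near that of complex I. Among 39 tested subunits of complexes II to V, 36 lay above 0 with a median of 0.33. Of these, 2 rose in limma, Cyc1, the cytochrome c1 of complex III, by 0.75 ± 0.15 (adjusted p = 0.015) and Atp5o, a stalk subunit of the ATP synthase, by 0.65 ± 0.17 (adjusted p = 0.04999), and 0 fell. With 1 array left out these p-values reached 0.0812 and 0.199. In the blocked fit 7 rose and 1 fell, the gene that fell being Cox7a2l, a supercomplex factor, at -0.56 ± 0.19 (blocked 0.0411). Mitochondrial ribosomal proteins numbered 71, with 70 above 0, a median of 0.34 and 1 called higher, Mrpl16, at 0.73 ± 0.17 (adjusted p = 0.0348, up to 0.126 with 1 array left out), with 0 lower. The 15 enzymes of pyruvate oxidation and the citric acid cycle had a median of 0.36, with 14 above 0 and 0 called in either direction in limma (before adjustment, 5 were higher and 0 lower at a p under 0.05). Idh3g and Fh1, which had the smallest p among them, stood at 0.40 ± 0.15 and 0.39 ± 0.15 (0.157 and 0.167). The difference between complex I and these lists was not tested.

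Assembly factors of complex I without an Nduf symbol had a lower median than the members, a difference that was not tested. Of 10 tested, 8 lay above 0, the median was 0.24, and 1 rose and 0 fell in limma. That gene was Aifm1, a flavoprotein that acts in complex I assembly through Chchd4. Aifm1 had 3505, 3156 and 3821 on knockout-labelled arrays 5, 7 and 8, against 1976, 2149 and 2412 on wild-type arrays 5, 7 and 8. No arrays overlapped, and it rose by 0.68 ± 0.17 (SE; limma adjusted p = 0.0431, up to 0.178 with 1 array left out). Chchd4, the oxidoreductase of the intermembrane space that folds twin-CX9C proteins such as Ndufa8, had 5218, 6498 and 7604, against 4339, 4618 and 4049. These did not overlap either, and the difference was 0.55 ± 0.17 (adjusted p = 0.0919).

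Genes of iron-sulfur cluster assembly and the regulators of mitochondrial genes had medians nearer to 0, though the difference from complex I was not tested. The 7 tested iron-sulfur genes had a median of 0.092, with Nfs1, the cysteine desulfurase, at 0.48 ± 0.19 (limma adjusted p = 0.184), Iscu, the scaffold, at 0.32 ± 0.16 (0.277) and Isca2 at -0.29 ± 0.18 (0.419). The 13 tested regulators had a median of 0.034, with 7 above 0. In both lists 0 genes were called in either direction in limma, and at an unadjusted p under 0.05 1 was higher and 0 lower among the iron-sulfur genes and 1 and 1 among the regulators. Tfam, which packages and transcribes mitochondrial DNA, had 5520.4, 5123 and 5277 on the knockout-labelled arrays, against 6564, 7372 and 6293 on the wild-type arrays. It lay lower on all knockout-labelled arrays, at -0.34 ± 0.15 (0.215). Nrf1, whose motif is in the Ndufa8 promoter, stood at -0.34 ± 0.25, Gabpa at -0.096 ± 0.17, Yy1 at -0.06 ± 0.14 and the coactivator Pprc1 at 0.51 ± 0.23 (adjusted p = 0.486, 0.814, 0.872 and 0.236). Ppargc1b had the highest difference of the 13, at 0.88 ± 0.50 with overlap, and Esrra stood at 0.36 ± 0.24 (0.36 and 0.46). For Esrra every knockout-labelled array was above every wild-type array, and for 2 of the 13 the reverse held. Ppargc1a, Ppara and Ppard were too dim to be tested.

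**Figure D4:**
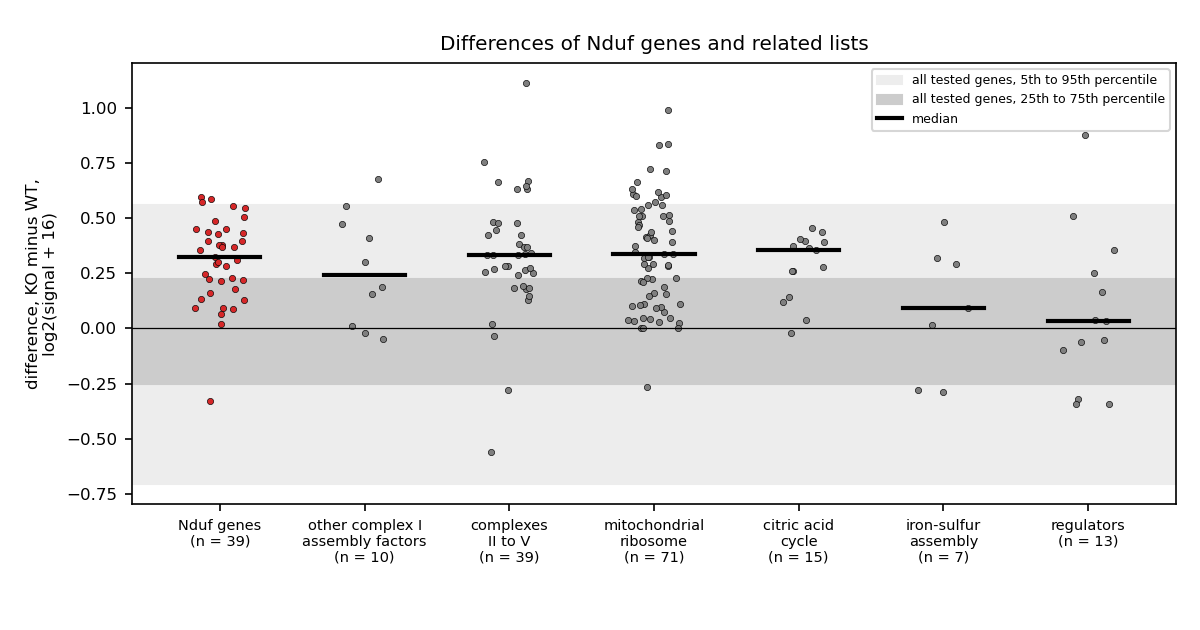
Each point is 1 gene's difference between knockout-labelled and wild-type arrays (y axis, log2(signal + 16) scale), and black bars are medians. Grey bands span the 5th to 95th and the 25th to 75th percentiles of all tested genes, and the Nduf median of 0.32 lies above the inner band.

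Markers of several cell types moved beside these differences. Summed signals of 8 monocyte markers ran from 22396 to 22601 on the knockout-labelled arrays, against 13125 to 15046 on the wild-type arrays, with 3 of 6 tested called higher and 0 lower. For 11 neutrophil markers the sums were 7409 to 14974, against 20867 to 42104, with 5 of 9 tested lower and 1 higher. Gene by gene, 3 monocyte markers lay above every wild-type array on all knockout-labelled arrays and 5 overlapped. Of the neutrophil markers 5 lay below on all of them and 1, Mmp8, above. The 12 erythroid and megakaryocyte markers summed to 9957 to 10891, against 18152 to 26875, and the 8 mast cell and basophil markers to 6085 to 8551, against 3063 to 5697. The 8 LSK markers summed to 41541 to 43611, against 49744 to 60184, with Kit and Flt3 called lower. None of these 3 pairs of ranges overlapped, and the calls beside them were Car2 lower among erythroid and Hdc higher among mast cell genes. Only 4 of the 8 LSK markers lay below every wild-type array on all knockout-labelled arrays, and the others overlapped. Of those, Slamf1 and Gata2 stood above 0, at 0.38 ± 0.22 and 0.23 ± 0.17 (0.367 and 0.519). Without Car2 the erythroid and megakaryocyte sums overlapped, at 5034 to 7027, against 5439 to 9833. Without Cpa3, the brightest of its list, so did the mast cell and basophil sums, at 3132 to 5004, against 1358 to 3154. Sums of 11 B and plasma cell markers overlapped, at 28355 to 43091, against 25476 to 35076, as did those of 10 T and NK cell markers, at 1850.4 to 2376, against 1679 to 2090.0. Only 7 of the B and plasma cell markers and 2 of the T and NK cell markers were tested, and none was called in the main limma fit. In the blocked fit Thy1, from the T and NK cell list, was called higher and Sdc1, a plasma cell marker, lower (blocked adjusted p = 0.0431 and 0.0444). Without Thy1, the brightest of its list, the T and NK cell sums were 793 to 1362, against 1109 to 1630. A call of Thy1 alone therefore does not show more T cells. Pax5 and Cd4 lay below the brightest bacterial control probe set on every array. The ratio of 3′ to 5′ Gapdh control signal was 4.3 to 6.11 on the knockout-labelled arrays, against 4.44 to 5.73 on the wild-type arrays, so that these overlapped. The part of these in the complex I differences was not tested.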

How the data were processed

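Each of 6 single-colour Affymetrix arrays gave a linear intensity for every probe set, used as the authors deposited it. These signals were made with MAS5, per the submitters' processing notes. No source used here names its version or settings, but the trimmed mean of each array was 999.9, so the arrays had been scaled to 1 level. RNA of sorted cells (10 ng) went through 2 rounds of amplification, per the labels' protocols, which favours 3′ ends. Array medians lay between 286 and 335, and the number of arrays limits the precision.

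From these, log2(signal + 16) was computed without further normalization. The brightest 60% of the 22626 non-control probe sets (13575, mean above about 198) were tested with limma 3.58.1 in R 4.3.3 (lmFit, eBayes with trend, two-sided, Benjamini-Hochberg, threshold 0.05). Differences are knockout-labelled minus wild type. Gene symbols come from the platform annotation, which can be old, and the identifiers of all 39 members matched the RefSeq table of GRCm38.p6. The fit was also run on simulated data, but the outcome is not given here and no result rests on it.

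Samples with the same number in their titles deviated together (correlations 0.159 to 0.238 for same-numbered and -0.134 to -0.0307 for other pairs). Deviations from a group mean cancel over its arrays, so the negative values of other pairs are no separate sign of pairing. The numbers were taken as pairing the samples, but the main fit left them out. Only p-values called blocked come from the fit with the number as a block, which was an alternative. The genes named are the core subunits, members called in either fit, the extremes of difference and signal, the smallest p of each role group and genes whose probe sets disagree; from the pathway lists, called genes and those of smallest p, while other genes were chosen after their values were seen. Members and lists were chosen with earlier results of these data known. The promoters shown and the motif letters were chosen after the values were seen, and the NRF1 and Gfi1 letters were shortened by 1 base after a first search. Alternatives changed the pseudocount (1, 64), filter, normalization, variance model, block, probe sets, members and arrays.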

Additional observations from a re-analysis of the deposited data

Results flagged for a closer look

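The 8 probe sets annotated to an Nduf gene and to a second gene were outside the comparison above. In 3 of them every knockout-labelled array was above every wild-type array, which held for 12.4% of all tested genes. The others overlapped and are given under other observations. The probe set shared by Ndufa11, a membrane arm subunit, and Ndufa11b had signals of 545, 612 and 727 on knockout-labelled arrays 5, 7 and 8, against 355, 272 and 342 on wild-type arrays 5, 7 and 8. It differed by 0.92 ± 0.23 (SE; limma adjusted p = 0.0456, blocked 0.0382), and passed in none of the fits with 1 array left out (adjusted p 0.0588 to 0.177). The probe set of Ndufs5 and the pseudogene Ndufs5-ps had 2456, 1757 and 1735, against 1251, 1121 and 1386, a difference of 0.64 ± 0.20 (adjusted p = 0.0931). That of Ndufs6, an accessory subunit that binds zinc, and Ndufs6b had 4268, 4751 and 4084, against 3257, 2347 and 3476, a difference of 0.54 ± 0.18 (adjusted p = 0.117). Which of the paired genes was measured cannot be told apart.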

How the results depend on the processing

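The median difference of the Nduf genes stayed above 0 under all 19 alternatives run, between 0.22 (without wild-type array 7) and 0.42 (without wild-type array 8). Other scalings gave 0.38 (median centring), 0.31 (quantile) and 0.30 (cyclic loess). No Nduf gene was called lower under any alternative, and called higher was 1, Ndufa8, only with the sample number as a replicate block (adjusted p = 0.0438); the block changed no other call among the representatives. Members with every knockout-labelled array above every wild-type array numbered 15 to 24 with 1 array left out, the reverse 0 to 1, and 24 and 1 without both arrays numbered 7, an alternative chosen after seeing the data. Groups separate more easily with fewer arrays, and the shares over all tested genes are not given for these sets. A higher count here is therefore not a stronger result. Ndufa1 changed sign with cyclic loess (-0.0058) and without both arrays numbered 7 (-0.042), as did Ndufs1 without those arrays (-0.063). With single arrays left out Ndufa1 ran from -0.093 to 0.12, Ndufs1 from -0.14 to 0.22 and Ndufb11 from -0.032 to 0.17. Over all probe sets, 196 were called higher and 297 lower. These became 320 and 479 with the block, 69 and 119 without the filter, 57 and 124 without trend, 169 and 193 with median centring, 34 and 58 without both arrays numbered 7, and 34 to 266 and 90 to 282 with 1 array left out. Fewer arrays leave less power; the cause was otherwise not tested. Ndufaf3 and Ndufs5 had the dimmest representatives.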

Other observations

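The other probe sets that name an Nduf gene beside a second gene overlapped between the groups. For Ndufb4 and its copies Ndufb4b and Ndufb4c, 1 probe set had 1052, 1036 and 1011 on knockout-labelled arrays 5, 7 and 8, against 797, 1013 and 962 on wild-type arrays 5, 7 and 8, and a second 456, 493 and 417, against 306, 533 and 639. They stood at 0.16 ± 0.19 and -0.053 ± 0.27 (SE; limma adjusted p = 0.702 and 0.948), the second being the only tested probe set of these that lay below 0. The probe set of Ndufab1 and Ndufab1-ps stood at 0.34 ± 0.17 (0.314), and that of Ndufb2 and Adck2 at 0.67 ± 0.29 (0.217). A probe set of Ndufa13 and Yjefn3 was too dim to be tested, with signals of 22 to 42.4 on the knockout-labelled arrays and 30.2 to 61.7 on the wild-type arrays.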
